A study of Danio rerio with 6 samples.

Results

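The tails described here are those of wild-type (WT) zebrafish, and their members are the 3 WT libraries of a series of 6, chosen by the genotype label alone. Each WT library was made from cells of the tail of embryos of strain AB at 28 hours after fertilisation, grown under normal conditions. The other libraries of the series carry the sih genotype and were not used here. RNA was extracted with TRIzol, messenger RNA was taken with oligo-dT beads and fragmented, and cDNA was made with random primers before Illumina sequencing. The labels do not say how many tails went into a library, where the tail was severed, or whether the replicates came from separate clutches, so the spread between them may be technical.

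At this stage the zebrafish tail is a small limb-less extension of the trunk that holds most of the body's tissue types in simple order. A notochord runs along its axis under the spinal cord, blocks of striated muscle flank both, a main artery and vein carry the first circulating red cells below, and a fin fold of skin surrounds the whole. Somites form from a bud of precursor cells at the tip under Wnt, Fgf and T-box control, and this growth is nearly complete at the stage sampled. Marker genes of these tissues are well known, so a bulk transcriptome can be read by how many reads each tissue's genes take. In such bulk RNA, fewer cells of a type and less RNA per cell cannot be told apart.

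The 3 WT libraries held 22732979, 27222955 and 27006629 reads over 25745 genes. Levels are given in CPM, the reads of a gene scaled to a library total of 1000000 gene reads, and numbers in brackets after a gene are CPM. They are the mean ± SD (n = 3) or, where 3 values stand together, those of replicates 1, 2 and 3 in that order. CPM values are not corrected for gene length, because no transcript lengths were at hand. They say how the sequencing effort was divided among genes, and a long transcript takes more reads than a short one at the same number of molecules. Replicate 1 stood apart from the others: over 15325 genes with a mean of at least 1 CPM, its rank correlation was 0.907 with replicate 2 and 0.916 with replicate 3, against 0.975 between replicates 2 and 3. Values of single libraries are therefore given for many genes, among them those where replicate 1 lay well above or below both others, and abundance below means the share of reads.

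A small number of genes took about 50% of the reads. The 162 genes with a mean of at least 1000 CPM were 0.629% of the genes in the table and took 49.2% of the reads. The 1032 genes between 100 and 1000 CPM took 25.5%, the 6985 genes between 10 and 100 took 22.0%, and the 7146 genes between 1 and 10 took 3.03%. No read was counted in any WT library for 1026 genes. The most abundant gene took 3.58%, 2.90% and 4.85% of the reads of the 3 libraries, and the 10 most abundant took 16.9 ± 1.73%. The first 193, 189 and 130 genes of the 3 libraries took 50% of their reads, so replicate 3 was the most concentrated. Of the 100 most abundant genes of each library, 74 were common to all, and of the 20 most abundant, 17.

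**Figure D1:**
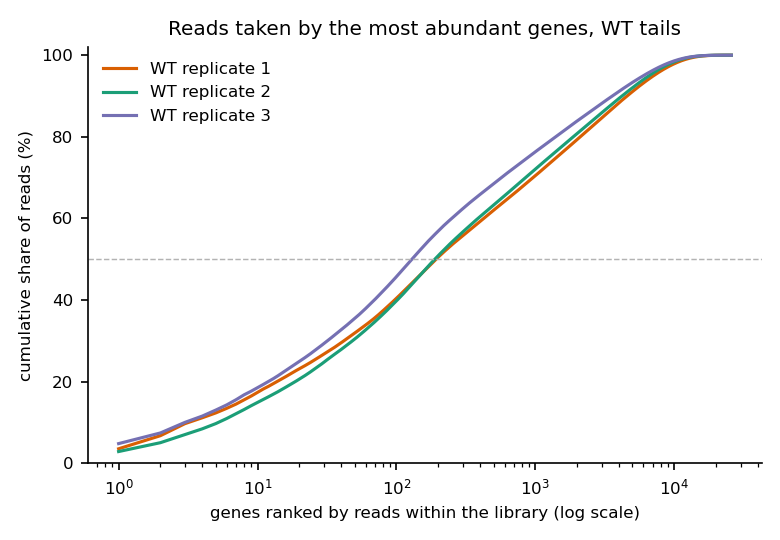
Cumulative share of reads (%) against genes ranked by their reads within each WT library (log scale), with 1 line per library and a dashed line at 50%. The curve of replicate 3 lies above those of replicates 1 and 2 and reaches 50% at 130 genes, against 193 and 189.

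The 20 genes that took the most reads belonged mainly to muscle, skin, collagen matrix and protein synthesis. The first was actc1b, a sarcomeric alpha-actin, with 35785, 28979.6 and 48457 CPM. The second was krt4, a type II keratin of the embryonic skin, with 32089, 21742 and 25859 CPM. The third was atp2a1, the calcium pump that refills the sarcoplasmic reticulum of fast muscle, with 29408, 19980.2 and 26138 CPM. Muscle gave 10 of the 20: besides actc1b and atp2a1 these were the muscle creatine kinases ckmb (12751 ± 1649.7) and ckma (10321 ± 1997), the myosin light chains mylpfa (12655 ± 1309.6), myl1 (6171 ± 386) and mylz3 (6133 ± 646), the tropomyosin tpma (10522 ± 1398), the actin acta1b (5868 ± 908) and the fast troponin C tnnc2 (5668 ± 419). The cytoplasmic actins actb2 (8014 ± 1059.9) and actb1 (7473 ± 1049.8), which build the cytoskeleton of every cell, stood next to each other. Translation was represented by the elongation factors eef1a1l1 (14233 ± 1328) and eef2b (6403 ± 1100.4), and protein folding by the constitutive chaperone hspa8 (5048 ± 661). The matrix genes were col1a1a (8730.3 ± 1384), a chain of type I collagen, and col2a1a (4539.9 ± 159), the type II collagen of notochord and cartilage. The mitochondrial genome added mt-co1 and mt-co3, subunits of cytochrome c oxidase. The first had 10341, 12540.5 and 6796 CPM, highest in replicate 2 and lowest in replicate 3.

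Markers of tail tissues were mostly detected, and those of other regions mostly not. A gene was called detected where it reached 1 CPM in each of the 3 WT libraries, which is 22.7, 27.2 and 27.0 reads. Over all genes, 13922 of 25745 (54.1%) were detected. Of 337 markers in 20 lists of tissues known in the tail, 275 (81.6%) were detected, with a median of 19.2 CPM, and together they took 19.2 ± 1.55% of the reads. Of 118 markers in 9 lists of organs and regions outside the tail, 14 (11.9%) were detected, with a median of 0.238 CPM, and they took 0.0364 ± 0.0055% of the reads. Much of that share came from a single gene of the gut list, fabp2, described below. These lists were drawn up and trimmed with values of these data known, so the counts are given as a description with no test.

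**Figure D2:**
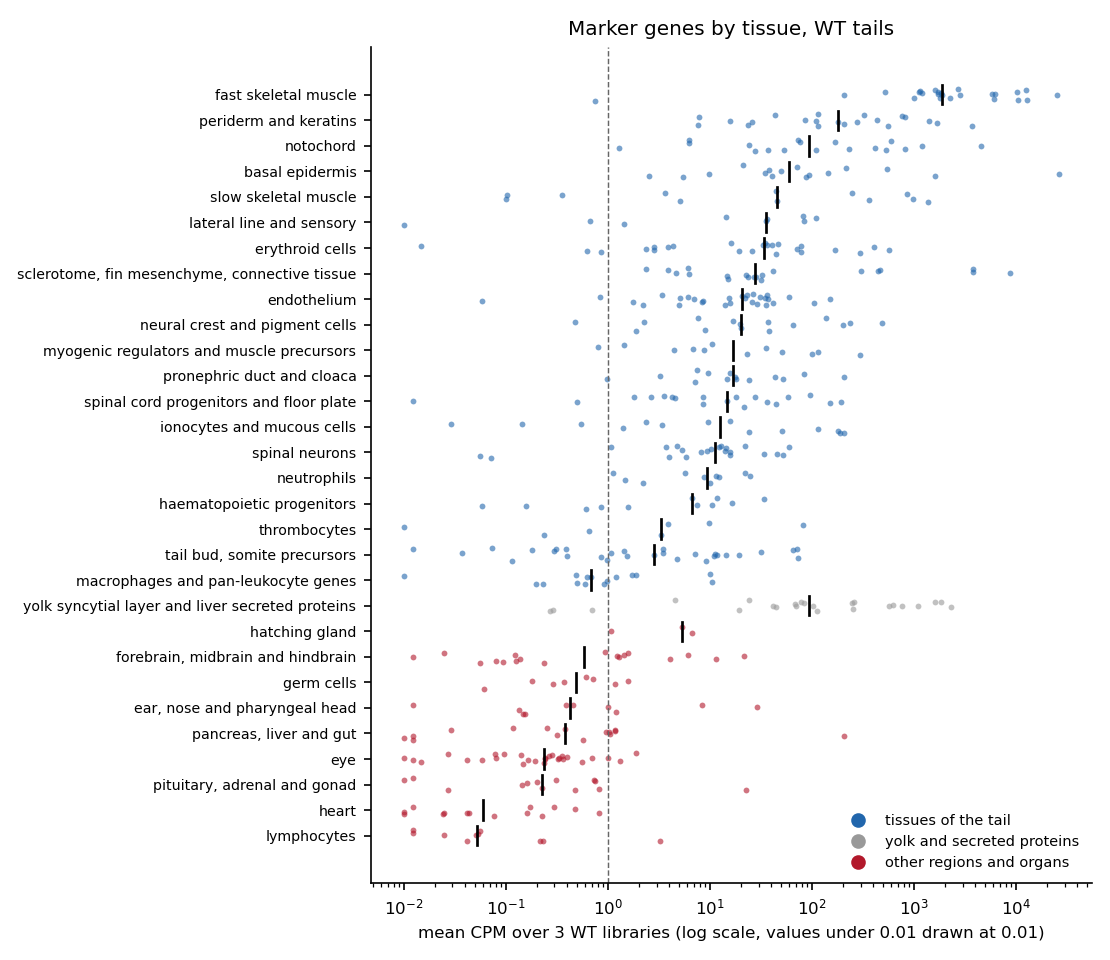
Mean CPM over the 3 WT libraries (log scale) of each marker gene, by tissue list, with black bars at each list's median and a dashed line at 1 CPM; blue points are tissues of the tail, grey points yolk and secreted proteins, red points other regions and organs. Fast muscle has the highest median, and heart and lymphocytes have the lowest.

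Of the tissue lists, that of fast striated muscle took the most reads. Together with the families of striated muscle actins, tropomyosins and troponins, parvalbumins and striated myosin heavy chains, the fast and slow muscle lists held 68 genes, each counted once, which took 16.6%, 14.6% and 18.1% of the reads of the 3 libraries. Of 24 fast muscle markers 23 were detected, and the list took 11.3 ± 0.896% of the reads. Its exception was tnni2b.2, a fast troponin I copy, with 1.14, 0.441 and 0.667 CPM. The slow muscle list took 0.393 ± 0.0628%, with 8 of 12 genes detected. Its leading genes were the tropomyosins tpm3 (1389 ± 180.1) and tpm2 (969 ± 97.4) and the slow myosin heavy chain smyhc1 (1718, 478 and 389 in the 3 libraries). In the mean these 3 genes made up 81.9% of the list. Its share is therefore mainly theirs, and bulk reads cannot assign it to slow fibres. The slow forms of myosin binding protein C (mybpc1, 0.356 ± 0.0922), troponin T (tnnt1, 0.103 ± 0.0131) and troponin I (tnni1b, 0.04399, 0.1102 and 0.148) were under 1 CPM.

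The regulators of muscle formation took far fewer reads than the contractile genes. Of 12 such genes 11 were detected, and the list took 0.0652 ± 0.0135% of the reads. The transcription factor mef2ca, which turns on contractile genes, led with 406, 263 and 211 CPM, followed by myod1 (115 ± 4.07), the factor that commits cells to muscle, and mef2d (101 ± 31.2). Myogenin, myog, which drives differentiation, had 13.8, 24.4 and 31.1 CPM and was lowest in replicate 1. The precursor factors pax7b (11.6, 4.996 and 4.11) and pax3a (7.92, 3.42 and 2.11) were detected, and pax7a (1.72, 0.441 and 0.222) was not.

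The parts of the contractile apparatus did not vary alike between the libraries. Classes of muscle protein were summed to show this, chosen after the values had been seen. The 5 fast troponins summed to 13289, 14053 and 14105 CPM, a coefficient of variation of 3.31%, and parvalbumins 1 and 2, calcium buffers of fast fibres, had one of 3.88%. The 4 fast myosin light chains summed to 24026, 27212 and 27261 CPM. The 4 fast myosin heavy chains, the motor subunits, summed to 9382, 2537 and 3075 CPM in the same libraries. The 3 slow heavy chains summed to 1824, 490.4 and 416 and the alpha-actinins actn3a and actn3b to 3295, 1476 and 1590.1, so these 3 classes were highest in replicate 1 while light chains and tropomyosins were lowest there. The leading heavy chains were myhz1.1 (3181, 985 and 1373), myhz1.3 (3523, 812 and 1062) and myhz2 (2339, 611 and 492). The whole family of striated myosin heavy chains took 0.592 ± 0.461% of the reads, and 0.327% in the mean of replicates 2 and 3 alone. Why replicate 1 differed was not tested. The myhz1 heavy chain genes and the alpha-actins are near-identical copies, and their reads may have been split or lost among them.

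**Figure D3:**
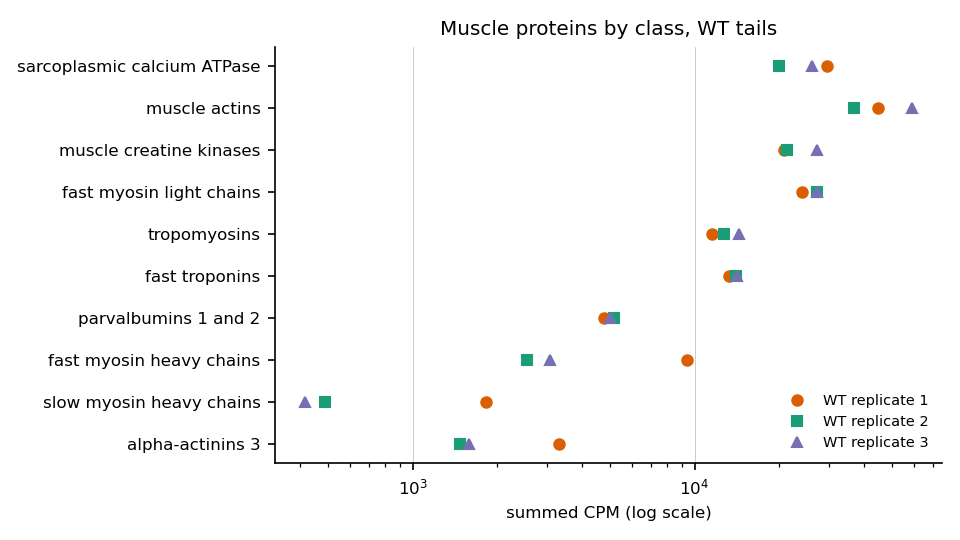
Summed CPM (log scale) of each class of muscle protein, with 1 point per WT library. Fast myosin heavy chains sum to 9382 in replicate 1, against 2537 and 3075 in replicates 2 and 3, while the fast troponins lie between 13289 and 14105 in all 3.

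Skin came next. Zebrafish embryonic skin has a basal layer, a surface layer called periderm, and scattered ionocytes that take up ions from the water. All 16 basal markers were detected and took 2.95 ± 0.532% of the reads. Of these, 89.8 ± 1.73% came from krt4, a keratin also known from the surface layer, so the share of the list is mainly that of 1 gene and cannot be assigned to the basal layer. The next genes of the list were krt5 (1609.7 ± 126), a basal keratin, and EPCAM (349, 761 and 525), an epithelial adhesion protein. The basal regulator tp63 had 118, 68.9 and 76.5 CPM. The Fraser complex genes fras1 (308, 189 and 158), frem3 (112, 52.2 and 48.2) and frem2a (78.4, 15.2 and 10.7), which anchor the fin fold epithelium to its basement membrane, were highest in replicate 1. All 21 genes of a list of periderm markers and keratins were detected and took 1.09 ± 0.0576% of the reads. They were led by the type I keratins cyt1l (3685 ± 231) and cyt1 (1702 ± 612) and by krt8 (1392 ± 577). The claudins, tight junction proteins, had 23 of 41 members (56.1%) detected, near the 54.1% of all genes. The leading claudins were cldni (431 ± 77.4), cldne (207 ± 25.6) and cldn7b (170.0 ± 42.3). Keratins as a family took 3.78 ± 0.605% of the reads, and 19 of 25 were detected.

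Of 14 ionocyte and mucous cell markers, 10 were detected. The sodium pump subunits atp1a1a.4 (298, 157 and 165) and atp1a1a.2 (181 ± 48.2) and the carbonic anhydrase ca2 (189 ± 52.4) led. Of these, atp1a1a.4 is also the leading gene of the pronephric duct list below, so its reads cannot be assigned to ionocytes alone. The ionocyte fate factors foxi3b (15.9 ± 2.37) and foxi3a (9.56 ± 3.22) were detected, and so were the calcium channel trpv6 (1.67, 3.42 and 4.999) and gcm2 (2.35 ± 0.663). The ammonia transporter genes rhcga (0.145 ± 0.0612) and rhcgb (0.08798, 0 and 0) and the cotransporter slc12a10.2 (0.8798, 0.331 and 0.444) were below the threshold. The lateral line is the chain of sense organs that a migrating primordium lays down along the tail. Of 9 lateral line and sensory markers in the table, 7 were detected. They included the chemokine receptors cxcr7b (82.8 ± 2.56) and cxcr4b (14.5 ± 4.02), the claudin cldnb (111 ± 27.4) and the sensory factor eya1 (82.1 ± 21.7). Bulk reads do not show whether these came from the lateral line. The marker six1b (42.6, 33.1 and 29.8) is also on the list of muscle regulators. The hair cell factor atoh1a (0.572, 0.735 and 0.704) was not detected, and lhfpl5b, a gene of the hair cell transduction complex, had no read in any library.

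The notochord and connective tissue lists were led by collagens. Of 18 notochord markers 17 were detected, and they took 0.892 ± 0.0483% of the reads. The type II collagen gene col2a1a had 4357, 4631 and 4632 CPM. The chains of type IX collagen, which decorates type II fibrils, followed with 1209.9 ± 184 for col9a1, 812 ± 172 for col9a2 and 539 ± 135 for col9a3. The notochord signal shha, which patterns the spinal cord and slow muscle, had 70.3, 76.4 and 71.98 CPM. The early notochord factor flh was low, with 0.616, 1.102 and 2.18 CPM. The laminin chains lamc1 (396, 146 and 144) and lamb1a, which form the notochord sheath, were higher in replicate 1 than in replicates 2 and 3. The name lamb1a is carried by 2 identifiers, one with 77.2 and the other with 53.7 CPM in the mean, and reads may be divided between them.

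Of 20 sclerotome, fin mesenchyme and connective tissue markers 19 were detected, and they took 1.78 ± 0.216% of the reads. The 3 chains of type I collagen made up 91.7% of that list: col1a1a had 8730.3 ± 1384, col1a1b 3809.7 ± 145 and col1a2 3752 ± 32.4 CPM. The share of the list is therefore mainly that of these 3 genes, and bulk reads cannot assign it to connective tissue cells. The actinodins and1 (793, 277 and 325) and and2 (504, 211 and 193), proteins of the fibres that stiffen the larval fin fold, were highest in replicate 1. The fin mesenchyme factors msxb (41.2 ± 7.72), prrx1a (32.1 ± 4.49) and twist1a (31.6 ± 4.66) and the sclerotome factors pax9 (23.4 ± 4.11) and pax1a (3.85 ± 0.768) were detected. The exception was twist1b, with 3.92, 2.498 and 0.741 CPM. Over the whole family, 50 of 61 collagen genes were detected and took 3.12 ± 0.313% of the reads.

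The spinal cord was visible in progenitor and neuron genes alike. Of 19 progenitor and floor plate markers 16 were detected. The glial filament gene gfap (195 ± 18.3) and the neural stem cell factors sox19a (151 ± 21.5) and sox3 (95.96 ± 1.99) led. Dorsoventral domains were represented by olig2 (21.5 ± 3.93) of motor neuron precursors, nkx6.1 (18.1 ± 6.82), dbx1a (14.8 ± 2.29) and the floor plate gene foxa2 (8.57 ± 1.18). The genes notch1a (1.28, 0.147 and 0.0741) and foxa (0.0123 ± 0.0214) and the pax6 copy pax6b (5.89, 1.18 and 0.926) were under 1 CPM in at least 1 library. Of 22 neuron markers 19 were detected, led by stmn2b (59.3, 60.4 and 61.3), a microtubule regulator of growing axons, by snap25a (51.6 ± 4.47) of the synaptic release machinery and by stmn2a (45.3 ± 5.96). The spinal cord marker elavl3 (34.0, 5.84 and 3.30) was detected and was several times higher in replicate 1 than in the others. Markers of excitatory (slc17a6b, 5.79 ± 2.304) and inhibitory neurons (gad1b, 12.2 ± 1.62; slc32a1, 19.6, 11.4 and 11.1) and of motor neurons (mnx1, 9.46 ± 1.597) were detected. The glycine transporter slc6a5 (0.176, 0.0367 and 0) and the receptor ntrk3a (0.132, 0 and 0.03703) were not, and chat, the enzyme of acetylcholine synthesis, had 1.32, 1.18 and 0.704 CPM.

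Neural crest derivatives were marked by pigment genes. Of 15 markers 13 were detected, and they took 0.127 ± 0.00758% of the reads. The pteridine pathway enzyme gch2 had 473, 542 and 434 CPM. The melanosome genes tyrp1b (234 ± 53.6), pmela (203 ± 52.98), dct (137 ± 32.1) and tyr (37.8 ± 4.91) followed, with the crest factor sox10 (36.9 ± 4.44) and the melanocyte factor mitfa (20.2 ± 2.51). The early crest factor foxd3 had 2.33, 2.28 and 2.22 CPM. The genes csf1ra, a receptor of yellow pigment cells and macrophages (5.19, 0.294 and 0.185), and ltk, a receptor of silvery pigment cells (1.01, 0.257 and 0.148), did not pass. Both were highest in replicate 1.

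Blood and vessels took few of the reads. Of 24 erythroid markers 21 were detected, and the list took 0.197 ± 0.0171% of the reads. The embryonic globins hbae3 (565 ± 52.4) and hbbe3 (402 ± 59.6) led, and the red cell anion exchanger slc4a1a had 114, 60.2 and 61.9 CPM. The regulator gata1a (5.67, 2.64 and 3.22) was detected, while klfd (1.36, 0.624 and 0.555), the mitochondrial iron importer slc25a37 (0.748, 0.367 and 0.741) and epor, listed with 1 read in replicate 1 only, were not. Copies of hbae1 and hbbe1.1 share their names, and their reads cannot be assigned with confidence.

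Of 29 endothelial markers 25 were detected, and they took 0.1004%, 0.0703% and 0.0604% of the reads. The first were notch3 (239.8, 115 and 93.2), which mural cells and neural cells also use, the scavenger receptor stab2 of the caudal vein (137, 89.5 and 86.5) and the venous factor nr2f2 (60.1 ± 15.2). The vascular growth factor receptor kdrl (26.8 ± 7.89) and the arterial ligand efnb2a (34.4 ± 10.7) were detected. The junction gene cdh5 had 5.59, 0.771 and 0.296 CPM and did not pass, because replicates 2 and 3 were below the threshold. The endothelial factor erg (2.903, 0.845 and 1.56) and the genes listed as BX255919.1 (0.968, 1.54 and 0) and si:dkey-208k22.3 (0.176, 0 and 0) did not pass either. Of 14 markers of pronephric duct and cloaca, the kidney tubules that open near the base of the tail, 13 were detected. They were led by the sodium pump subunit atp1a1a.4 (298, 157 and 165), which is also on the ionocyte list and made up 41.0% of this one. They included the duct cadherin cdh17 (128, 60.6 and 60.98), the salt transporter slc12a3 (51.8 ± 9.97) and the bicarbonate transporter slc4a4a (77.02, 29.1 and 24.2), and only hnf1bb (1.94, 0.331 and 0.704) did not pass.

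The lists of white cell markers differed in how many of their genes were detected. They hold unlike kinds of genes, so the counts do not compare the lineages themselves. Of 10 neutrophil markers 9 were detected, with the lysozyme gene lyz at 24.7, 32.4 and 17.5, lect2l at 14.3, 21.9 and 30.1 and the myeloperoxidase mpx at 18.3, 11.6 and 7.37 CPM. The exception was the oxidase subunit ncf1 (1.45, 1.07 and 0.889). Of 15 macrophage and pan-leukocyte genes 3 were detected: coro1a (10.5 ± 1.95) and lcp1 (14.4, 7.604 and 8.33), which other white cells also use, and mfap4 (2.11, 2.02 and 1.04). The macrophage genes mpeg1 (0.968, 0.771 and 0.296) and irf8 (1.41, 0.735 and 0.592) were below the threshold, as were the complement gene c1qb (0.04399, 0.331 and 0.222) and the scavenger receptor marco (0.233 ± 0.0225), and tnfa had no read. Of 11 progenitor markers 6 (54.5%) were detected, near the 54.1% of all genes. They were led by si:dkey-261h17.1 (54.1, 29.5 and 17.6), lmo2 (16.5 ± 3.905) and tal1 (11.8 ± 1.62) and included cmyb (9.15, 4.92 and 5.81). The factors gfi1b (1.54, 0.0735 and 0.222) and gata2b (0.159 ± 0.07595) were under 1 CPM in at least 1 library. The stem cell factor runx1, which marks cells emerging from the trunk artery, had 4 reads in replicate 1 and 0 in replicates 2 and 3. A count of 0 allows up to 0.110 and 0.111 CPM in those libraries, counting error only. Of 7 thrombocyte markers 4 (57.1%) were detected, also near the 54.1% of all genes. They were led by thbs1b (144, 56.9 and 42.4), f5 (9.74 ± 2.17) and nfe2 (3.91 ± 0.8095). In the mean, thbs1b alone made up 82.0% of the reads of this list, so they are mainly those of 1 gene. The thrombopoietin receptor mpl (0.08798, 0.404 and 0.222) and GP9 (0.655 ± 0.0989) were not detected, and itga2b, a platelet integrin subunit, had no read.

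Markers of the tail bud took few of the reads, which does not measure how much of the tail is bud. Of 29 markers of tail bud and somite precursors 17 (58.6%) were detected, near the 54.1% of all genes. The list took 0.0348 ± 0.00331% of the reads. The first were the Notch ligand dld (72.97 ± 14.3), the T-box factor ntla of notochord and bud (59.3, 93.8 and 61.2) and aldh1a2, which makes retinoic acid (65.3 ± 6.695). Bulk reads do not show how much of the signal of these genes came from the bud. The bud genes fgf8a (9.22 ± 1.405), cdx4 (11.8 ± 4.88), eve1 (7.21 ± 1.54), msgn1 (1.23, 5.11 and 4.18) and tbx16 (2.82 ± 0.807) were detected. Some genes that oscillate or switch briefly in forming somites were at the edge or below, while the Notch ligand dlc, which also oscillates there, had 20.7, 21.2 and 15.6 CPM. The gene her1 had 0.528, 1.47 and 0.926, her7 0.08798, 0.331 and 0.481, ripply2 0.04399, 0.845 and 0.296, mespba 0, 0.147 and 0.0741 and mespaa 0, 0.0367 and 0.0741 CPM. The Wnt genes of the bud, wnt3a (0.308, 0.0367 and 0) and wnt8a (2 identifiers, with means of 0.309 and 0.0122), were below 1 CPM.

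All 49 Hox genes, the factors that set position along the body axis, were detected, and took 0.12 ± 0.0173% of the reads. Genes of paralog group 9 took 25.4 ± 1.73% of the Hox reads, led by hoxb9a (105, 125 and 87.8) and hoxa9a (49, 79.1 and 53.4), and genes of group 3 took 18.6 ± 1.91%, led by hoxc3a (70.5, 96.7 and 78.7). Group 13, whose genes mark the tail end, took 8.68 ± 0.490%.

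Among the signalling families, reads were most concentrated in the Wnt ligands, where the first 3 genes took 64.5% of the mean CPM. The first 3 took 46.1% for Fgf, 46.6% for Bmp and Gdf, 49.6% for Hedgehog and 44.9% for Notch genes. Of 26 Wnt ligands 11 were detected, led by wnt11r (82.3, 94.8 and 85.7), wnt5b (31.9 ± 11.2) and wnt4b (19.2 ± 2.42). Of 24 Fgf ligands 9 were detected, led by fgf4 (11.04 ± 1.31), fgf8a (9.22 ± 1.405) and fgf10a (6.67 ± 2.33). Of 21 Bmp and Gdf ligands 13 were detected, led by bmp2b (16.7, 18.2 and 16.7), bmp4 (14.3 ± 2.28) and gdf10a (20.02, 13.2 and 9.33). The Hedgehog pathway had 12 of 14 genes detected. Its receptor and target ptch1 (97.7, 62.5 and 54.9), the co-receptor boc (149, 80.3 and 74.4) and the transducer smo (52.9 ± 10.5) stood beside the ligand shha. None of these was the highest Hedgehog pathway gene, which had 146 CPM in the mean. The Notch pathway had 19 of 22 genes detected, with the modifier lfng at 133, 170.0 and 109.7 and notch3 and dld as given above. Among transcription factor families, 21 of 26 Sox, 12 of 20 T-box, 8 of 15 Pax and 34 of 61 Fox genes were detected. Their leading members were sox19a (151 ± 21.5), sox3 (95.96 ± 1.99) and sox6 (45.6 ± 11.7); ntla (71.4 ± 19.4), tbx3 (21.6, 12.3 and 9.85) and tbx15 (14.02 ± 3.04); pax9 (23.4 ± 4.11), pax2a (14.7, 7.2 and 6.52) and pax6a (8.62 ± 2.62); and foxk2 (69.9 ± 0.926), foxp1a (57.1, 34.97 and 37.7) and foxp4 (30.7 ± 13.6). Detected members made up 42.3% of the Wnt, 37.5% of the Fgf, 53.3% of the Pax and 55.7% of the Fox genes, near or below the 54.1% of all genes. They made up 60% of the T-box and 61.9% of the Bmp and Gdf genes, not far above it. The shares were 80.8% for Sox, 85.7% for Hedgehog and 86.4% for Notch genes.

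Protein synthesis and energy metabolism took a large part of the remaining reads. The 85 genes of cytosolic ribosomal proteins took 11.2%, 14.1% and 16.1% of the reads, lowest in replicate 1 and highest in replicate 3, and 83 were detected. Reads were spread over many of them: the first 3, rps2 (4513 ± 661), rplp0 (4392 ± 665) and rpsa (4257 ± 857), made up 9.54% of the family's reads. Translation factors took 3.37 ± 0.228%, and after eef1a1l1 and eef2b the translation factor eef1g (1922 ± 187) came next. The 13 mitochondrially encoded genes took 3.11%, 4.13% and 2.45%, highest in replicate 2. After mt-co1 and mt-co3 came mt-co2 (3485 ± 1134). The 108 nuclear genes of oxidative phosphorylation took 1.78 ± 0.307%, led by the ATP synthase subunits ATP5B (2221 ± 395), atp5a1 (2154 ± 479) and atp5g3b (713 ± 97.7). Glycolytic enzymes took 1.04 ± 0.0868%, led by gapdh (2719 ± 309), aldoab (2626 ± 97.7) and eno3 (571, 957 and 1475).

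Other general families were smaller. Heat shock proteins took 0.951 ± 0.139% of the reads, with hspa8 followed by hsp90ab1 (2754, 1079.8 and 1374) and hsp90aa1.1 (638, 309.6 and 396), the form that folds myosin in muscle. Tubulins took 0.382%, 0.535% and 0.668%, led by TUBB4A (1 of 3) with 951, 1377 and 1862 CPM, tubb4b (1097 ± 342) and tuba8l4 (957 ± 308). Proteasome subunits took 0.4697 ± 0.114%, led by psmb7 (223 ± 56.4), psmd1 (218 ± 38.7) and psmd3 (209 ± 50.9), and ferritins 0.0869 ± 0.0182%, led by fth1a (697 ± 143), zgc:92066 (127 ± 29.3) and zgc:198419 (15.3, 24.2 and 33.4). Of 30 genes of DNA replication and mitosis 29 were detected, led by pcna (398, 712 and 726), the sliding clamp of DNA polymerase, mcm7 (352 ± 79.7) and rrm1 (208 ± 17.9). Of 57 histone genes 16 (28.1%) were detected, below the 54.1% of all genes. The leading ones, h2afvl (420.2, 725 and 730.2), h3f3d (592 ± 107) and h1f0 (521 ± 109), encode replacement variants and a linker histone, whose messages carry poly(A) tails, whereas most replication-dependent histone messages carry none.

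**Figure D4:**
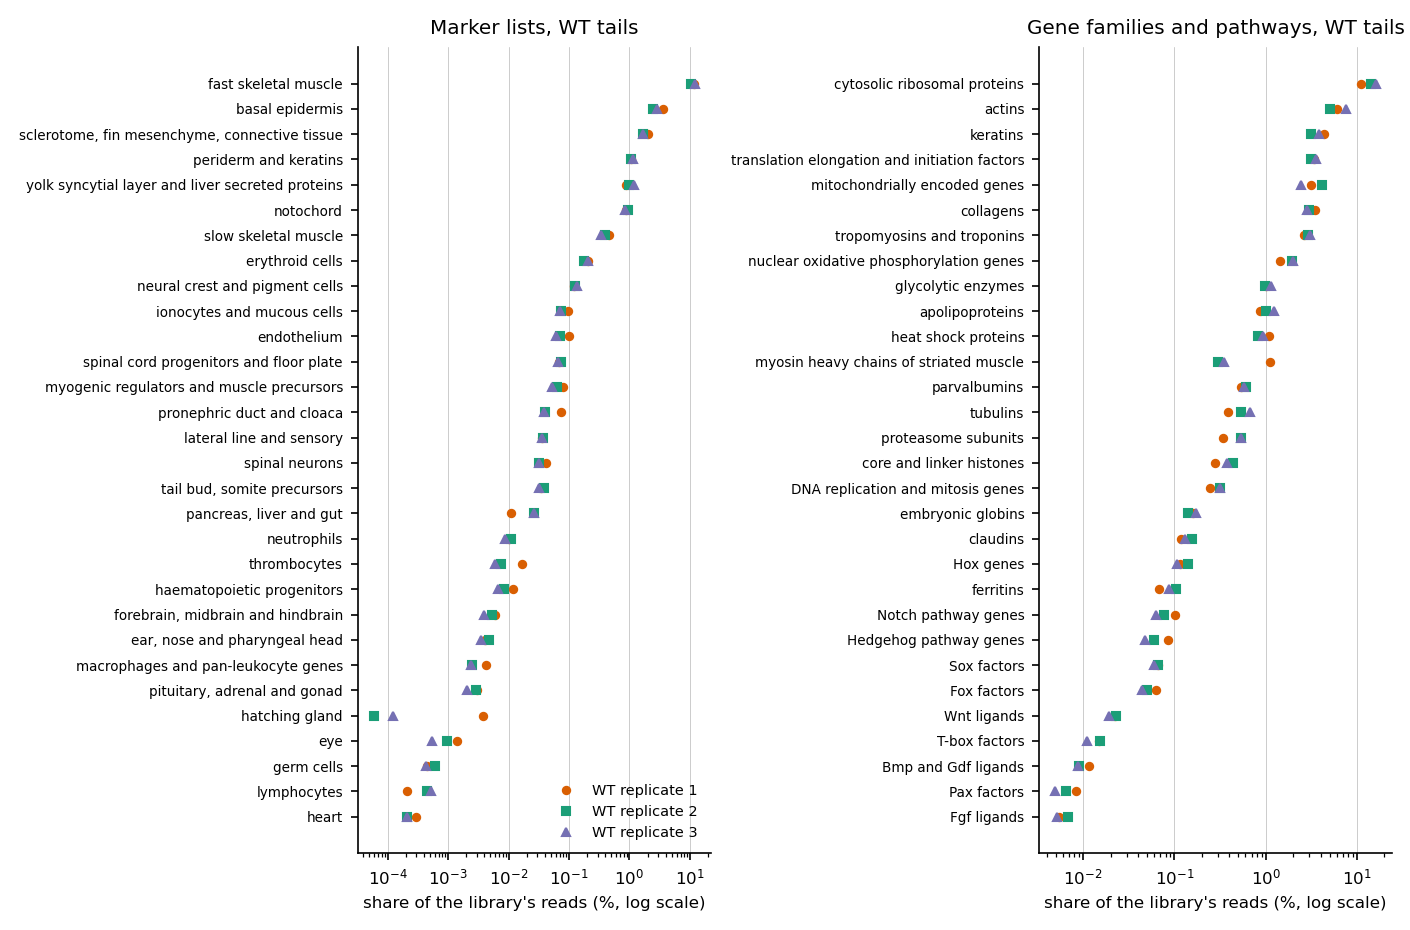
Share of each WT library's reads (%, log scale) taken by 30 marker lists on the left and 30 gene families and pathways on the right, with 1 point per library. Ribosomal proteins and fast muscle lie highest, and the hatching gland and the striated myosin heavy chains show replicate 1 apart from replicates 2 and 3.

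Secreted proteins of the yolk syncytial layer and liver took a visible share of the reads although both tissues lie outside the tail. Of 24 such genes 21 were detected, and they took 0.890%, 0.995% and 1.18% of the reads. The apolipoproteins apoa1a (1849, 1880.2 and 3168), apoeb (1574, 1779 and 2123) and apoa2 (1169, 1711 and 2000.2), which carry lipid out of the yolk, led. In the family of apolipoproteins, APOA1 (1 of 2) (1597, 1244 and 2415) also ranked among the first 3. Transferrin, tfa, had 634, 442 and 649 and the retinol carrier rbp4 192, 232 and 319 CPM. The liver gene ahsg (0.697 ± 0.166) and the plasma carriers gc (0.616, 0.147 and 0.111) and ttr (0.271 ± 0.227) were below the threshold. Some of these genes, apoeb among them, are also made in skin or other tissues of the embryo, and the labels do not say whether yolk was removed.

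Markers of organs outside the tail were mostly at or near 0. None of 14 heart markers was detected. The cardiac myosin genes myl7 (0, 0.0735 and 0), myh6 (0.308, 0.0735 and 0.296) and vmhc (0 in all 3 libraries) and the cardiac troponin T gene tnnt2a (0, 0.331 and 0.148) were all under 1 CPM, and bmp10 had no read. The highest of the list were MYH7B (1 of 3) (1.63, 0.257 and 0.592), nkx2.5 (0.396, 0.882 and 0.148) and tnnc1a (0.04399, 0.294 and 0.555), and BX323876.3 had 1 read in all. Of 28 eye genes, 2 were detected, the crystallin crygn2 (1.804, 2.64 and 1.26) and vsx1 (1.32, 1.62 and 1.04), a gene of retinal and spinal interneurons. The lens genes mipb and crygmx had 1 read each, and the rod opsin rho had none. Of 18 genes of forebrain, midbrain and hindbrain, 5 were detected. These were mafba (26.2, 21.7 and 16.9), dlx2a (13.2, 13 and 8.22), emx2 (4.53, 7.75 and 5.89), eng2a (5.32, 3.93 and 2.96) and foxg1a (1.23, 1.47 and 1.15). The brain genes otx1b, pax5 and fezf2 had 0.0122, 0.0247 and 0.0562 CPM in the mean. Of 10 genes of the ear and pharyngeal head 3 were detected, dlx3b (31.5, 31.8 and 23.3), dlx4b (5.85, 11.02 and 8.18) and barx1 (1.06, 1.102 and 1.48). Bulk reads cannot assign the detected brain and head genes to those regions. Another dlx gene, dlx5a (22.3, 26.2 and 14.8), is on the basal epidermis list of the tail. The iodide transporter slc5a5 (0, 0.2204 and 0.222) and the otolith genes otomp (0.2199, 0.0735 and 0.111) and otol1a (0.0123 ± 0.0214) were far below the threshold.

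Of 15 genes of pancreas, liver and gut, the single one detected was fabp2, a fatty acid binding protein of the intestine, with 104, 254 and 258 CPM. It was the most abundant of the 118 markers of other regions and was lower in replicate 1 than in the other replicates. In the mean, fabp2 made up 96.7% of its list, which took 0.0213% of the reads, against 0.0364% for all 118 markers. Much of that share is therefore 1 gene, and bulk reads cannot assign it to the intestine. Next in the list were sst2 (1.23, 0.184 and 2.15) and ela2l (0.748, 1.396 and 1.41), and the lowest were cpa1 and ctrb1, with 1 read each, and zgc:66382, with none. Insulin, ins, had 0.968, 0.184 and 1.93 and the liver gene fabp10a 0.132, 0.0735 and 0.148 CPM. Of 13 genes of pituitary, adrenal and gonad the single one detected was cyp17a1, an enzyme of steroid synthesis (26.6, 23.8 and 17.1), while star (0.792, 0.771 and 0.704), which feeds cholesterol into that pathway, and cyp11a1 (0.352, 0.184 and 0.0741), its first enzyme, were under 1 CPM, as was the regulator nr5a1a (0.817 ± 0.406). The pituitary hormone genes fshb (0.0269 ± 0.0236) and pomca (0.0123 ± 0.0214) were near 0 and tshb had no read. Of 8 germ cell genes vasa was detected (1.01, 1.43 and 1.11), and nanos3 (0.4399, 2.46 and 1.81) was under 1 CPM in replicate 1, followed by piwil2 (1.496, 0.294 and 0.3703), with dazl (0.289 ± 0.259), tdrd6 (0.396, 0.1102 and 0.03703) and ca15b (0, 0.1102 and 0.0741) lowest. Of 10 lymphocyte genes rag2 was detected (1.41, 3.93 and 4.37), and its partner in receptor gene rearrangement, rag1 (0.176, 0.184 and 0.296), was not. The T cell kinase zap70 had 0.176, 0.184 and 0.333, and pax5, cd8a and cd79a had at most 2 reads in any library. Without replicate 1, detected genes numbered 3 for pancreas, liver and gut and 2 for germ cells, and without replicate 2 they numbered 2 for pancreas, liver and gut.

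The hatching gland, which lies over the yolk and secretes the enzymes that open the egg shell, stood apart in replicate 1. Its proteases he1a (18.8, 0.404 and 0.852), he1b (15.6, 0.184 and 0.259) and ctsl1b (3.08, 0 and 0.111) were seen mainly in replicate 1. The list took 0.00375% of the reads of replicate 1, and 9.05e-05% in the mean of replicates 2 and 3.

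Within sets of related genes, the leading member's share of the set's mean CPM ran from 30.4% for Delta to 99.98% for elongation factor 1 alpha. In a set of 2 genes the leader takes most of the reads by construction. In 33 sets with at least 2 members in the table, the leading gene was compared with the next by the log2 ratio of their reads in each library. Both genes were chosen by their mean CPM over the same 3 libraries, so the direction of the lead was partly set by that choice. The lead was called beyond the spread where it had the same direction in all 3 libraries and the mean log2 ratio exceeded 2 SD, which held in 24 sets. With 3 libraries an exact sign permutation test cannot pass 0.05, so none is given. Ratios of reads between genes include any difference in transcript length, and whether length also enters their variation between libraries was not tested.

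**Figure D5:**
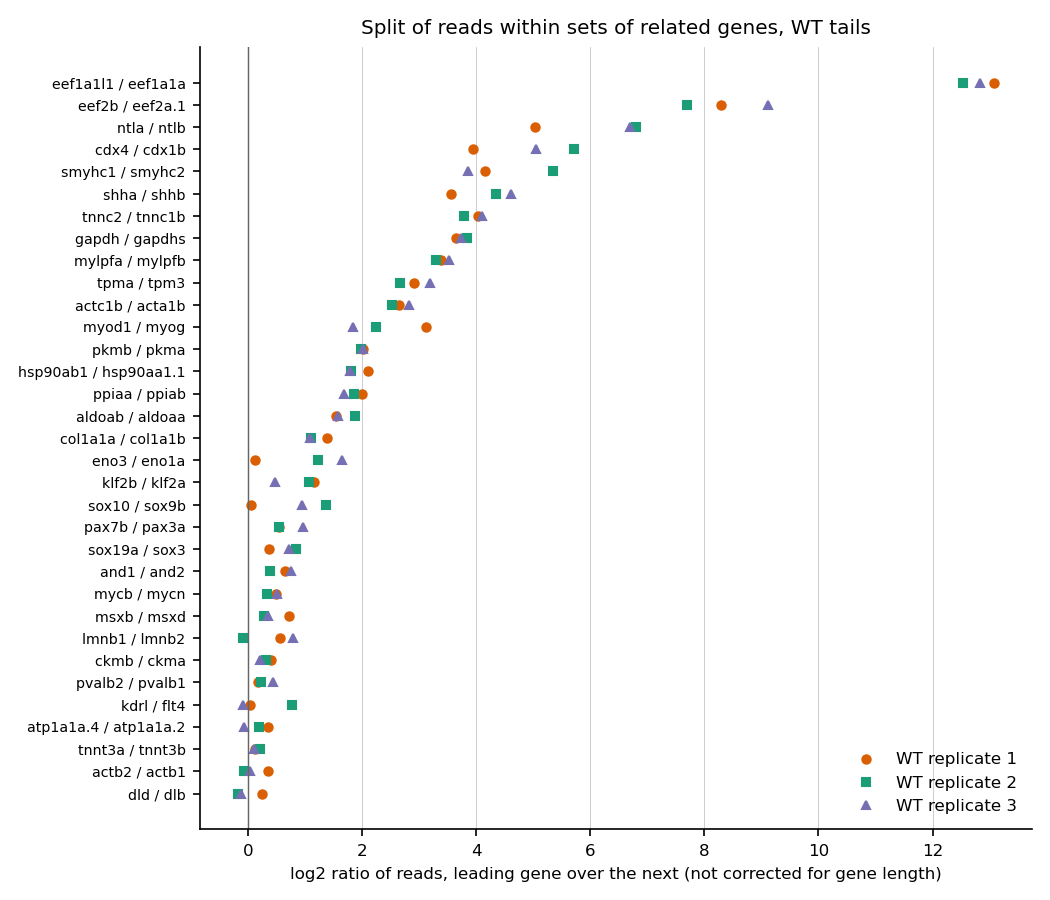
Log2 ratio of reads, leading gene over the next, in 33 sets of related genes, with 1 point per WT library and a line at 0 (equal reads). The ratio for eef1a1l1 over eef1a1a lies between 12.53 and 13.08, and actb2 over actb1 and dld over dlb lie on both sides of 0.

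In 9 of these 24 sets the lead was at least 10-fold. Nearly all reads of elongation factor 1 alpha came from eef1a1l1, which took 99.98 ± 0.00371% of the set's reads, with 1.98 ± 0.271 CPM for eef1a1a, 1.05 ± 0.07702 for eef1a1b and 1 read in all for EEF1A2. Likewise eef2b took 99.65 ± 0.153% of the reads of elongation factor 2, with 19.9 ± 5.99 CPM for eef2a.1 and 2.73, 1.21 and 1.22 for eef2a.2. Of the Brachyury copies, ntla took 98.4 ± 1.17% and ntlb (1.804, 0.845 and 0.592) the rest. Of the Caudal genes, cdx4 (8.14, 17.3 and 9.81) took far more reads than cdx1b (0.528, 0.331 and 0.296) and cdx1a (0.132, 0.1102 and 0.296). Of the sonic hedgehog copies, shha took 94.5 ± 2.04% and shhb, of the floor plate, had 5.94, 3.75 and 2.96 CPM.

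Several muscle sets had a strong leader. Of the striated muscle actins, actc1b took 80.1 ± 1.9% of the reads, followed by acta1b (12.7 ± 1.04%), actc1a (3.62 ± 0.269%) and acta1a (3.57 ± 0.895%). Of the fast regulatory light chains, mylpfa took 91.3 ± 0.612% and mylpfb the rest. Among tropomyosins tpma took 80.7 ± 2.63%, tpm3 10.7 ± 1.56% and tpm2 7.47 ± 0.713%, with tpm4a (132 ± 39.9 CPM) and tpm4b (6.36 ± 2.19) far behind. Of the troponin C genes, the fast tnnc2 took 93.98 ± 0.672%, the slow tnnc1b 6.02 ± 0.672%, and the cardiac tnnc1a had 0.04399, 0.294 and 0.555 CPM. Of the slow heavy chains, smyhc1 took 95.04 ± 2.15%, with smyhc2 (95.98, 11.8 and 26.96) and smyhc3 (10.1, 0.551 and 0.333) below it. The myogenic factor myod1 took 73.3 ± 5.62% of the reads of its family and myog 14.5 ± 5.02%, with the early factor myf5 and myf6 at 10.6 ± 1.52 and 8.76 ± 1.39 CPM.

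The other muscle and housekeeping leads beyond the spread ran from narrow to wide. Fast troponin T was divided almost evenly, with tnnt3a at 52.6 ± 1.003% and tnnt3b at 47.4 ± 1.003%, with tnnt3a ahead in each library (log2 ratio 0.15 ± 0.06). The muscle creatine kinases ckmb and ckma were split 54.96 ± 1.56% to 44.2 ± 1.62% (log2 ratio 0.31 ± 0.09), with the brain forms ckbb (107 ± 3.94) and ckba (87.9 ± 11.8) under 1% of the set. By the SD of the log2 ratio, pyruvate kinase varied least of the 33 sets (log2 ratio 2.00 ± 0.01), where pkmb took 80.05 ± 0.157% and pkma 19.95 ± 0.157%. The glycolytic gapdh took 93.03 ± 0.417% over gapdhs, aldoab 74.2 ± 2.27% over aldoaa, aldocb (82.4 ± 12.5) and aldoca (1 read in all), and the peptidyl-prolyl isomerase ppiaa 78.2 ± 1.83% over ppiab. Among HSP90 genes hsp90ab1 took 77.8 ± 2.12%, with hsp90aa1.2 at 41.8, 26.1 and 18.7 CPM. Of the type I collagen chains, col1a1a took 53.4 ± 3.33%, col1a1b 23.5 ± 1.24% and col1a2 23.2 ± 2.09%, and the lead was of col1a1a over col1a1b.

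Several regulatory families were divided among more members. In the SoxB1 set, sox19a took 43.9 ± 3.13%, sox3 28.2 ± 2.83%, sox19b 12.3 ± 1.03% and sox2 10.5 ± 0.5501%, with sox1b (10.96 ± 1.08) and sox1a (6.62 ± 0.6599) last. Among myc genes, which drive growth, mycb took 35.3 ± 2.95%, mycn 25.8 ± 0.441%, mycl1a 14.9 ± 2.51%, mych 14.7 ± 1.66% and myca 9.25 ± 0.867%. Of the muscle and neural crest factors, pax7b took 56.9 ± 6.06% and pax3a 35.3 ± 2.77%, while pax7a and pax3b (1.28, 0.1102 and 0.03703) were under 1 CPM in at least 1 library. Of the actinodins, and1 took 49.6 ± 4.25%, and2 32.7 ± 1.94%, and3 15.8 ± 3.24% and and4 1.82 ± 0.7602%. Of the copies of Kruppel-like factor 2, klf2b (42.8, 32.7 and 26.9) had more reads than klf2a (19.1, 15.6 and 19.4) in each library. That lead did not exceed 2 SD without replicate 1 (log2 ratio 0.77 ± 0.42) or without replicate 2 (0.82 ± 0.49), and the lead of sox19a over sox3 did not without replicate 3 (0.61 ± 0.33).

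In 9 sets the leader and the next gene were not separated beyond the spread. Leaving out 1 library moved 7 of them past 2 SD. In the Delta set dlb was then ahead of dld without replicate 1 (log2 ratio of dld over dlb -0.15 ± 0.04). In the other 6 the named leader stayed ahead: enolase (log2 ratio 1.44 ± 0.30), SoxE (1.16 ± 0.29) and Msx (0.31 ± 0.05) without replicate 1, lamin (0.67 ± 0.16) without replicate 2, the sodium pump (0.27 ± 0.12) without replicate 3, and parvalbumin without replicate 1 (0.34 ± 0.16) or 3 (0.20 ± 0.04). The cytoplasmic actins actb2 (8368, 6823 and 8852) and actb1 (6590.1, 7195 and 8634) changed places between libraries, with log2 ratios of 0.34, -0.08 and 0.04. The Delta genes dld (89.5, 64.3 and 65.1), dlb (75.2, 72.7 and 70.8) and dla (86.2, 63.9 and 60.2) took reads within a narrow range, with dld first in replicate 1 and dlb first in replicates 2 and 3, above dlc (19.2 ± 3.11) and the vascular dll4 (7.57, 3.93 and 3.92). The vascular receptors kdrl (35.02, 26.01 and 19.3) and flt4 (34.3, 15.3 and 20.5) also changed places, with flt1 (7.65, 4.22 and 3.04) and kdr (7.79, 1.36 and 1.11) lower and both highest in replicate 1. The lamins lmnb1 (228, 230.4 and 204) and lmnb2 (155, 245 and 118) changed places as well, ahead of lmna (47.9 ± 16.7) and lmnl3 (3.22 ± 1.08). Of the sodium pump subunits, atp1a1a.4 and atp1a1a.2 were followed by atp1a1a.3 (85.1 ± 22.9), atp1a1b (87.8, 55.1 and 52.99) and atp1a1a.5 (10.21, 1.91 and 2.07), the last of them several times higher in replicate 1 than in the others. The muscle enolase eno3 led eno1a by log2 ratios of 0.12, 1.23 and 1.66, a lead that was smallest in replicate 1, with eno2 (11.2, 6.098 and 5.67) and eno1b (4.95 ± 0.915) far below. The SoxE gene sox10 led sox9b (31.1, 14.5 and 21.2) and sox9a (22.7, 7.71 and 7.11), again by least in replicate 1. Parvalbumins 2 and 1 took 47.6 ± 2.42% and 39.2 ± 2.201% of their set, and pvalb4 (433 ± 60.9), pvalb9 (153 ± 48.2), pvalb3 (130.3 ± 22.4), pvalb8 (36.5 ± 1.68), pvalb7 (2.42 ± 1.56), pvalb6 (0.484, 0.882 and 1.63) and pvalb5 (0.2199, 0.0367 and 0.0741) the rest. The Msx genes, named as in the table, were msxb (41.2 ± 7.72), msxd (30.01 ± 3.46), msxc (26.96 ± 7.49), msxa (6.18 ± 0.938) and msxe (4.64 ± 1.297).

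Most genes of moderate level were reproducible, and the exceptions lay mainly in replicate 1. Over 8179 genes with a mean of at least 10 CPM, the median SD of log2(CPM + 1) was 0.36, and 1608 genes had an SD under 0.2. An SD over 1 was found for 212 genes (2.59%), of which 193 were highest in replicate 1, 11 in replicate 2 and 8 in replicate 3. The count was 25 without replicate 1, 460 without replicate 2 and 410 without replicate 3, and without replicate 1 the 10 most variable genes included 3 of those named next. The gene with the widest spread was capn2l, a calpain protease, with 71.04, 121 and 0.555 CPM, low in replicate 3 alone. The next, zgc:92480, had 48.5, 0.0367 and 77.5 and was low in replicate 2 alone. The following genes were high in replicate 1: SPTBN1 (2 of 2), a spectrin of the membrane skeleton (71.8, 0.441 and 0.629), the RNA-binding protein igf2bp1 (36.4, 1.07 and 0.926), the translation factor EIF4G1 (3 of 3) (67.04, 2.42 and 3.41), SEPT10 (1 of 2) (25.6, 6.87 and 0.111), si:ch211-121a2.2 (28.1, 1.396 and 0.926), the laminin chain LAMA1 (43.4, 1.87 and 4.52), CABZ01035189.1 (28.02, 0.882 and 2.67) and the neuronal nitric oxide synthase nos1 (36.8, 2.498 and 2.81).

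The lists, families and sets together named 1361 genes, which took 54.3 ± 3.46% of the reads. The most abundant genes outside all of them were si:dkey-151g10.6 (2743, 3771 and 4516), gnb2l1 (2653, 2928 and 4190.4), which encodes the ribosome-bound scaffold now called RACK1, and tpt1 (2651, 3709 and 3408), which encodes a translationally controlled tumour protein. Of the genes without a name in the table, ENSDARG00000061952 had the most reads (39.8, 32.4 and 25.8), ahead of ENSDARG00000090858 (20.6, 21.6 and 15.7) and ENSDARG00000030945 (28.2, 11.1 and 11.03).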

How the data were processed

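Poly(A) RNA of WT zebrafish tails was analysed in 3 libraries. The authors deposited 1 table of 25745 genes whose values are a signal scale of normalised read counts, in which 1 read is worth 0.917, 0.826 and 0.983 units in the 3 libraries. All values above 0 were whole multiples of that unit within a tolerance of 1e-06, so the reads were recovered from the deposited signal and expressed as CPM, reads scaled to a library total of 1000000. Per the submitters' processing notes, edgeR 3.0.8, HTSeq 0.5.3p5 and TopHat were among the tools and Zv9 was the genome build; their roles are not stated. Annotation and strand setting: not given in the sources used here. Overlapping, antisense and near-identical genes may therefore share reads, and no coordinates are printed.

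Python 3.11.15 was used, with edgeR 4.0.16 for TMM factors only, and the recovery of reads was tested on simulated data. No groups were compared, so values are means ± SD over 3 libraries and no p-value is given. A threshold of 1 CPM in each library defined detection, and a count of 0 was read as allowing up to 3 reads per library. Reads are PCR products without molecular identifiers, so such limits cover counting error only. Comparisons per kilobase had been planned but need transcript lengths, which were not at hand. The 20 most abundant genes, the 3 highest and up to 3 lowest of each marker list, the 3 highest of most families, all members of each paralog set, the 10 most variable genes and the first genes outside all lists were named. Other list members are given as values. The lists and the choice of libraries were made with earlier results of these data known, and the lists were trimmed again once the table was at hand. Of 1608 list entries, 21 were not matched in the table.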

Additional observations from a re-analysis of the deposited data

How the results depend on the processing

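The number of genes detected was 20942 where 1 read in each library sufficed, against 13922 at 1 CPM, and between 14136 and 14380 with 1 library left out. Markers of other regions numbered 61 at 0.1 CPM and 29 at 10 reads in each library, against 14, so their absence depends on the threshold. Markers of the tail numbered between 275 and 311 throughout. Leaving the 20 most abundant genes out of the total alone raised the shares to 14.7% for fast muscle, 17.9% for ribosomal proteins, 4.91% for keratins, 4.04% for collagens and 4.17% for mitochondrially encoded genes, by construction. Leaving them out of the lists as well, a choice made after seeing the data, gave 3.06%, 17.9%, 1.46%, 2.32% and 2.28% in the same order. Leaving mitochondrially encoded genes out of the total, or summing reads over libraries, kept each of these 5 shares within 1 SD. The number of genes with an SD of log2 over 1 lay between 25 (without replicate 1) and 460 (without replicate 2) with 1 library left out; it was 145 on the deposited scale, 144 with TMM factors and 248 with a pseudocount of 0.1. The number of paralog sets with a leader beyond the spread, in either direction, lay between 24 and 28 with 1 library left out. Comparisons per kilobase were not run, since they need transcript lengths. No paired analysis was possible because replicate numbers could pair WT only with sih libraries, which were not used, and no result comes from a test. At 1 CPM a value rests on 22.7 to 27.2 reads, and genes below it cannot be ranked with confidence.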

Other observations

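Genes of very large muscle proteins, in no list above and chosen after their values were seen, were well represented. The titin genes ttna and ttnb, whose proteins span the length of a sarcomere from its edge to its middle, had 1536, 999.6 and 901 CPM and 1158, 928 and 761 CPM in WT replicates 1, 2 and 3. Nebulin, neb, which runs along the thin filament, had 1374, 642 and 815 CPM. Of the calcium release channels, ryr1b had 299.6, 92.5 and 85.6, ryr1a 153, 76.1 and 62.9 and ryr3 257, 91.5 and 82.9 CPM. The dystrophin gene dmd, which ties the cytoskeleton to the membrane, had 176, 54.1 and 77.9 CPM. All 7 genes were highest in replicate 1. Other abundant genes outside all lists included hmga1a, which codes for a chromatin protein (2804, 3340.2 and 2483 CPM), the betaine-homocysteine methyltransferase bhmt (1488, 1579 and 2248 CPM), and the RNA-binding protein genes ybx1 (1778, 1785 and 1399 CPM) and cirbp (1405, 2143 and 1368 CPM). Genes with myosin-related names were also among them: zgc:165344, now called mybphb (1949, 1587 and 2065 CPM), myl10 (1345, 1928 and 1659 CPM) and MYL4 (1239, 1725 and 1713 CPM). The muscle total given above left these out, as it did the titin and nebulin genes.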
